A study of Mus musculus with 24 samples.

Results

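Gene expression in the eye-moving (extraocular) muscles of control mice was compared between 28 and 14 days of age. The comparison takes the 3 arrays titled as 28-day control against the 3 titled as 14-day control, 6 of the 24 arrays of the series, over all probe sets that are not controls of the manufacturer. The interval runs from about the time when mice open their eyes to past weaning. The control animals are wild type. The other arrays of the series are mdx mice, whose dystrophin gene (Dmd) is cut short by a premature stop in every cell, and both genotypes at 56 and 112 days, again with 3 arrays per group. The labels name no strain, sex, treatment or number of animals per array for any group. They do not state whether the 3 arrays of a group are separate animals. The p-values below therefore rest on the spread between arrays, part or all of which may be technical. In the main model that spread is estimated from all 24 arrays, with errors drawn towards a trend across probe sets.

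Extraocular muscle is a set of small, very fast and fatigue-resistant muscles with fibre types of their own. In most skeletal muscle of the mouse, the weeks after birth bring an end to myoblast division, a replacement of developmental by adult myosins, and a rise of the enzymes and membrane proteins of working fibres. A group of imprinted genes, which are transcribed from only the maternal or only the paternal copy, is strongly transcribed in many fetal and newborn tissues and is shut down during postnatal growth.

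The values are array intensities in arbitrary units, scaled so that the mean of each array without its highest and lowest 2% of probe sets was 500. Fold changes are on a log2 scale after adding 16, so changes of dim probe sets come out too small. A probe set passed the test at a Benjamini-Hochberg adjusted p under 0.05 in a limma model over all 24 arrays, and errors of log2 changes are standard errors (SE) from that model. Pairwise correlations of the log2 levels of the 6 arrays, taken across probe sets that are no independent replicates, were from 0.882 to 0.946. The 28-day replicate 2 had the lowest mean correlation with the other 5, at 0.893. Probe sets for the fast myosin Myh1 (11700 to 28540) and of the fast troponin T gene Tnnt3 (12590 to 28310) were bright on all 6 arrays, so the arrays carry skeletal muscle RNA as labelled. Myh13, the myosin most typical of extraocular muscle, was not analysed here.

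Few genes changed between 14 and 28 days by this test. Among those that passed, the imprinted growth genes Meg3 (probe_160172_at), Mest and Dlk1 had the largest falls, followed by Pdzd11. Of 7453 probe sets tested, 21 passed (0.282%). Among these, 12 were higher at 28 days (0.161%) and 9 were lower (0.121%). They stand for 18 named genes and for 2 probe sets without a gene symbol. All 21 had 28-day arrays that lay wholly above or below the 14-day arrays, as 16.1% of all tested probe sets had (6.78% above and 9.3% below). At an unadjusted p under 0.05 there were 692 probe sets (9.28%), 315 higher (4.23%) and 377 lower (5.06%). The median log2 change of all tested probe sets was -0.06, and 57.4% were lower.

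The number of calls depended on the arrays in the model. A pair of arrays outside this comparison, control 56-day replicate 2 and control 112-day replicate 1, had the lowest mean correlations with all other arrays of the series (0.806 and 0.833). Without them 72 probe sets passed (0.966%), 42 higher (0.564%) and 30 lower (0.403%), and all 21 were among them. Without 1 array of the comparison between 2 and 8 passed: 2, 8 and 5 without 14-day replicates 1, 2 and 3, and 5, 3 and 3 without 28-day replicates 1, 2 and 3. With each array centred on its median the median change of all tested probe sets was 0.07 and 6 passed. Dlk1 (highest adjusted p = 0.0215) and the probe set probe_99671_at (highest adjusted p = 0.0173) passed by limma without any 1 of the 6 arrays, and no other called probe set did. None of the 21 changed sign under any alternative. As their ages did not overlap, other offsets, other filters or fewer arrays could not have turned a sign.

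**Figure D1:**
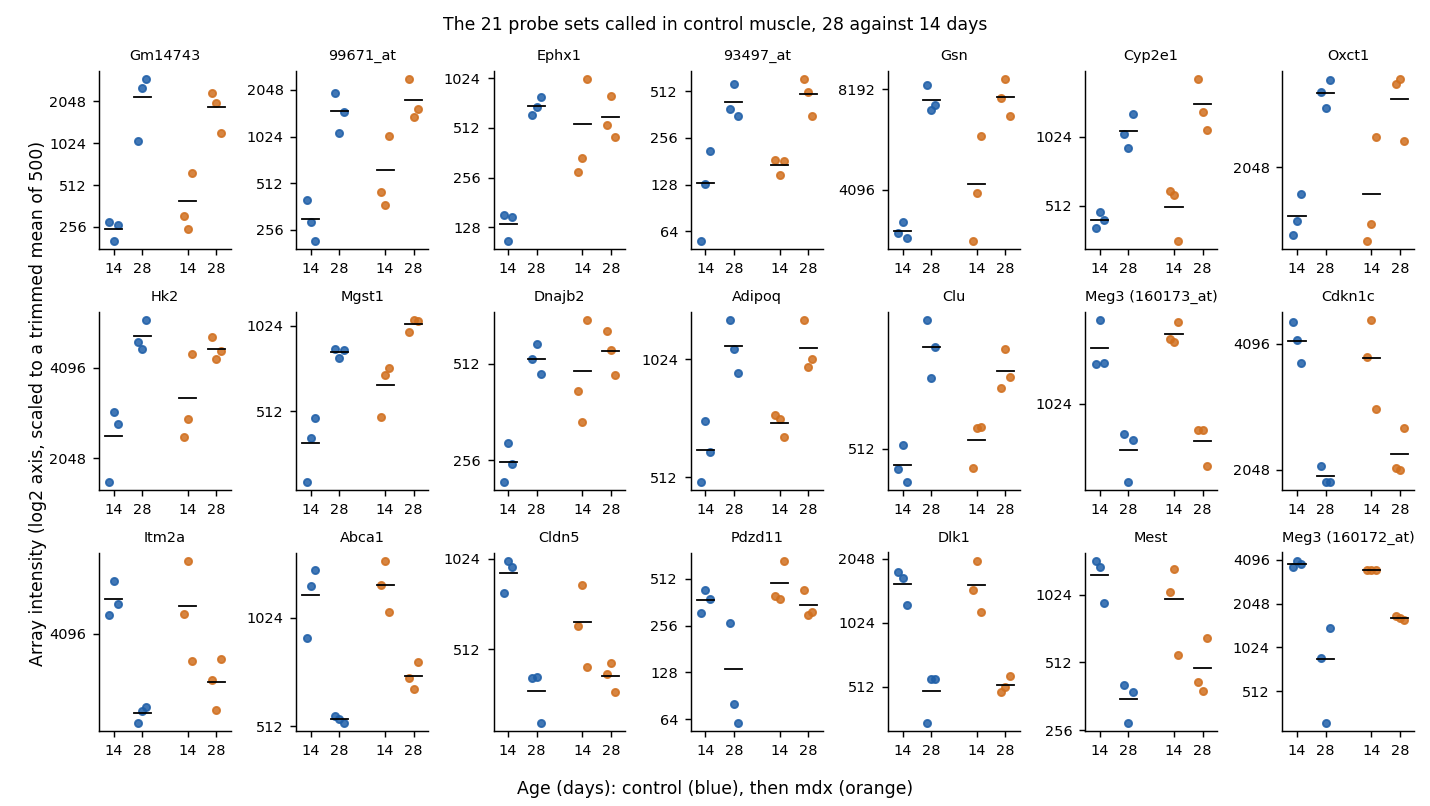
Intensity (log2 axis, scaled units) of the 21 probe sets that passed the test in control muscle, 1 panel per probe set, with 14 and 28 days on the horizontal axis, 1 point per array and a black bar at the arithmetic mean of 3 arrays. Blue points are control and orange points mdx. In every panel the 3 blue points at 28 days lie wholly above or wholly below those at 14 days, while orange points overlap between ages in some panels, as for Ephx1.

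Of 25 imprinted growth genes listed, 17 were tested. Of these, 4 passed as lower, where 0.121% of all tested probe sets did: Meg3, Mest, Dlk1 and Cdkn1c. Meg3 is a noncoding RNA made from the maternal copy and Dlk1 a membrane protein with EGF-like repeats made from the paternal copy of the same imprinted cluster, which on this build lies on chromosome 12. Mest is a paternally transcribed gene for a protein of the hydrolase fold, and Cdkn1c encodes p57, an inhibitor of cyclin-dependent kinases. The promoters of the first 3 are shown because these genes fell together. Methylation was not measured on these arrays. Each is the RefSeq window of 300 bases, 250 before and 50 after an annotated start (GRCm38.p6), 5′ to 3′ on the strand of the gene, with CG dinucleotides in capitals. Where a gene had several listed windows, the one with the most CG is shown.
Dlk1: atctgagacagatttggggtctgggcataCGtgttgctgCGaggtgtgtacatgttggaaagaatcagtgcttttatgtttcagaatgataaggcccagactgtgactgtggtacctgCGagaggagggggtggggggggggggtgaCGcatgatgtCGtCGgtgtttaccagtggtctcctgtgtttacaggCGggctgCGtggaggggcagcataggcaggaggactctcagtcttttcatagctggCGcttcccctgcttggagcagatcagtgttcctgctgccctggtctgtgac
Meg3: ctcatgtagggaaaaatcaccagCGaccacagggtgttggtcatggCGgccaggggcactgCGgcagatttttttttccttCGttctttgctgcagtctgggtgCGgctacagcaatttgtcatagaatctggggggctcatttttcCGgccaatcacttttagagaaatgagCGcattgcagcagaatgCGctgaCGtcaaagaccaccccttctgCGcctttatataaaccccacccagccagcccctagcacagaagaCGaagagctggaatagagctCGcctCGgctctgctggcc
Mest: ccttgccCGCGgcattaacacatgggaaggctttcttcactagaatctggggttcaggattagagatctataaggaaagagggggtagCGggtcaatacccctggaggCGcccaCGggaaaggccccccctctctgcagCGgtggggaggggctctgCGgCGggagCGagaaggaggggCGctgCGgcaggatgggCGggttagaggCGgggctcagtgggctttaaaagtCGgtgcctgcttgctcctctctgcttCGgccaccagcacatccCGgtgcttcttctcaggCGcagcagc
The Dlk1 window (chr12:109452573-109452872, plus strand) holds 9 CG, the Meg3 window (chr12:109540746-109541045, plus strand) 13 and the Mest window (chr6:30737800-30738099, plus strand) 17. Of 27025 genes with a window, 48.1%, 40.4% and 33.9% hold at least as many CG, and the median is 8.

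Dlk1 intensity was 1777, 1655 and 1239 on the 14-day arrays and 346, 558 and 557 on the 28-day arrays. The lowest 14-day array stood far above the highest 28-day array. The log2 change was -1.66 ± 0.23 (SE, limma adjusted p = 0.00114), a fold of 3.16. Its 95% confidence interval ran from -2.14 to -1.18. The mean of 487 ± 122 at 28 days was followed by 337 ± 50.7 at 56 days and 364 ± 17.4 at 112 days (SD of 3 arrays).

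Meg3 was measured by a pair of probe sets, and both fell. The probe set probe_160172_at read 3633, 4048 and 3859 at 14 days and 864, 311 and 1385 at 28 days. Its 14-day arrays were close to each other and its 28-day arrays were widely spread, without overlap. The log2 change was -2.39 ± 0.45 (adjusted p = 0.0243). The probe set probe_160173_at read 1320, 1753 and 1326 at 14 days and 844, 621 and 814 at 28 days. Its change was smaller, -0.93 ± 0.17 (adjusted p = 0.0243), so the probe sets of 1 gene gave folds of 5.22 and 1.91. Both probe sets read lower still at 112 days, at 104 ± 21.6 and 173 ± 28 (SD, n = 3).

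Mest read 1452, 1364 and 945 at 14 days and 406, 276 and 379 at 28 days, with no overlap. Its log2 change was -1.77 ± 0.33 (adjusted p = 0.0243). Cdkn1c read 4616, 4175 and 3685 at 14 days and 2086, 1913 and 1917 at 28 days. The 28-day arrays of Cdkn1c lay close together and below every 14-day array, and its change was -1.07 ± 0.21 (adjusted p = 0.0342). Leaving out 1 array ended the call of Cdkn1c in each case, up to an adjusted p of 0.147, and that of Mest in all cases but that of 14-day replicate 3, up to 0.126.

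The other imprinted genes did not pass, and most leaned the same way. Of the 17 tested, 14 were lower at 28 days (57.4% of all tested probe sets were), 9 without overlap between the ages, where 9.3% of all tested probe sets were. Their median log2 change was -0.56 and stayed below the median of all probe sets under each scaling, at -0.48 after quantile normalization and -0.43 after median centring. In mdx muscle the median change of these 17 was -0.27. The remaining genes named in this paragraph were chosen after their values were seen. Plagl1, a zinc finger gene transcribed from the paternal copy, had a change of -1.60 ± 0.40 (adjusted p = 0.105). Peg3, another paternally transcribed zinc finger gene, read 4816, 5968 and 5303 at 14 days and 2964, 3208 and 2982 at 28 days, without overlap, for a change of -0.81 ± 0.45 (adjusted p = 0.619). A dimmer Peg3 probe set changed by -1.21, also without overlap (adjusted p = 0.235). Igf2r, which removes the growth factor IGF2, changed by -0.33 ± 0.14 (adjusted p = 0.432).

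Igf2, the fetal insulin-like growth factor, did not pass. Its probe set probe_98623_g_at read 782, 11010 and 13830 at 14 days and 3463, 5817 and 8753 at 28 days, so that 1 array of the younger group was far below the other two and the ages overlapped. The change was 0.18 ± 0.75 (adjusted p = 0.974), and -1.14 without 14-day replicate 1 (adjusted p = 0.603). A second Igf2 probe set lay below the level filter. Of 11 tested genes of the IGF pathway and fetal growth factors, 0 passed by limma. At an unadjusted p under 0.05, 2 were lower and 0 higher, where 5.06% and 4.23% of all tested probe sets were. The largest difference was that of Mdk, the heparin-binding growth factor midkine, at -1.34 ± 0.42 (adjusted p = 0.246), named after its value was seen.

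**Figure D2:**
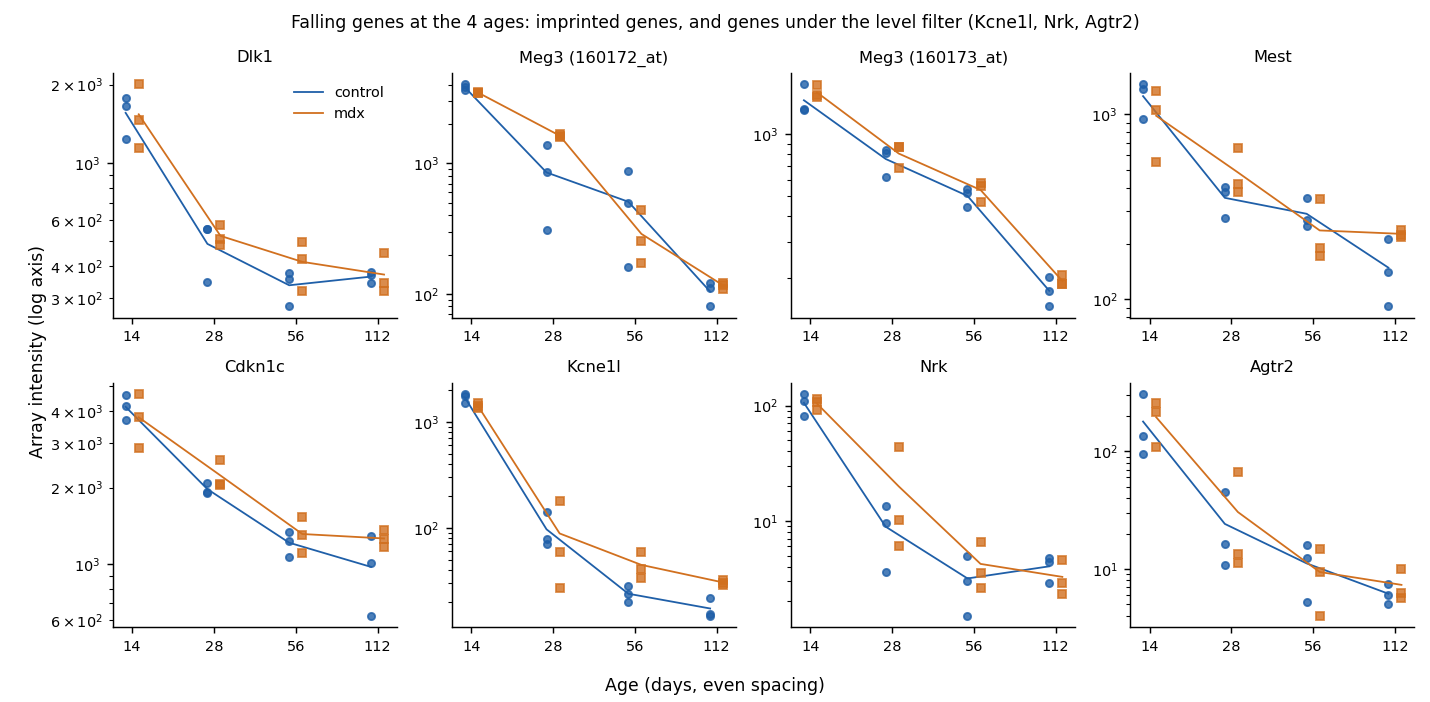
Intensity (log axis, scaled units) against age in days (evenly spaced) for the imprinted genes that fell and for 3 genes below the level filter, 1 panel per probe set. Blue circles are control arrays and orange squares mdx arrays, and lines join the arithmetic means of 3 arrays. Kcne1l goes from 1512 or more on each 14-day control array to 141 or less on each 28-day control array, and Dlk1 from 1239 or more to 558 or less.

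The largest fall of all was outside the test. The level filter takes the mean of the log2 levels over all 24 arrays, on which a few bright arrays weigh less than on a mean of intensities, so a gene that is bright at 14 days alone can drop out. Kcne1l, an X-linked accessory subunit of voltage-gated potassium channels, read 1845, 1512 and 1758 at 14 days and 71, 79 and 141 at 28 days. In a limma model without the filter its change was -3.98 ± 0.39 (adjusted p = 8.99e-06 over 12422 probe sets). Its mean was 23.9 ± 4.06 at 56 days and 17.4 ± 4.02 at 112 days (SD, n = 3), so the level went on going down after 28 days.

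That model called 21 probe sets (0.169%), of which 16 were among the tested probe sets and 5 were below the filter, all 5 lower at 28 days. Nrk, a kinase gene of the germinal centre kinase family known from embryonic muscle, read 127, 81.8 and 109 at 14 days and 9.6, 3.6 and 13.5 at 28 days, a change of -2.29 ± 0.29 (adjusted p = 0.00048). Agtr2, the type 2 receptor of angiotensin II, a receptor of fetal tissues, read 94.3, 308 and 134 at 14 days and 16.4, 10.9 and 45.2 at 28 days, a change of -2.22 ± 0.44 (adjusted p = 0.0364). Trim59, a ubiquitin ligase of the TRIM family, read 133, 77.7 and 131 at 14 days and 9.7, 36.1 and 5.4 at 28 days, a change of -2.06 ± 0.40 (adjusted p = 0.0364). The fifth was the unnamed probe set probe_97170_at, at -1.68 ± 0.31 (adjusted p = 0.0272). None of these 5 overlapped between the ages, which 9.81% of all 12422 probe sets showed in the lower direction. Values near the offset of 16 make these changes depend on the offset. A gene that rises and stays up has a higher mean log2 level over the 24 arrays than one that falls, so the filter itself bears on the direction of these 5. They are named after their values were seen.

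The other named genes that fell among the tested probe sets were Itm2a, Abca1, Cldn5 and Pdzd11. Itm2a, an X-linked type II membrane protein, read 4661, 5853 and 5020 at 14 days and 2258, 2443 and 2513 at 28 days, a change of -1.10 ± 0.21 (adjusted p = 0.0243). Abca1, the transporter that loads cellular cholesterol onto lipoproteins, read 903, 1259 and 1388 against 546, 537 and 523, a change of -1.10 ± 0.22 (adjusted p = 0.0342). Cldn5, the tight junction protein of endothelial cells, read 790, 1010 and 961 against 411, 416 and 292, a change of -1.28 ± 0.27 (adjusted p = 0.0402). In each of these genes the highest 28-day array was below the lowest 14-day array. A second Abca1 probe set, below the level filter, overlapped between the ages (-1.39 ± 0.66, adjusted p = 0.607 in the unfiltered model). Pdzd11, a small PDZ domain protein, read 307, 432 and 382 against 264, 80.2 and 60.7. Its change of -1.60 ± 0.35 was near the threshold (adjusted p = 0.0493), and its first 28-day array was close to the 14-day level. At 56 days Pdzd11 was back at 329 ± 73.4.

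Cldn5 was the only one of 15 tested endothelium markers to pass, where 0.121% of all tested probe sets passed as lower. At an unadjusted p under 0.05, 3 were lower and 0 higher, where 5.06% and 4.23% of all tested probe sets were. Without overlap 4 were lower and 1 higher, where 9.3% and 6.78% were. The median change of the 15 was -0.14 in control and -0.38 in mdx muscle. Pecam1 (0.10 ± 0.29, adjusted p = 0.959) and Cdh5 (-0.54 ± 0.22, adjusted p = 0.417), which also define endothelium, did not pass and were named after their values were seen. The summed level of the 15 markers was 16490 to 18620 at 14 days and 12540 to 19870 at 28 days, which overlapped. In whole muscle, fewer cells of a type and less RNA per cell cannot be told apart.

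Ephx1, Cyp2e1 and Mgst1 were among the genes that rose. Ephx1, the microsomal epoxide hydrolase, read 151, 106 and 147 at 14 days and 615, 682 and 787 at 28 days. No array of one age came near the other, and the change was 2.25 ± 0.46 (adjusted p = 0.0351), a fold of 4.74. Cyp2e1, a cytochrome P450 that oxidizes ethanol and acetone, read 407, 482 and 444 against 1052, 917 and 1289, a change of 1.25 ± 0.24 (adjusted p = 0.0243). Mgst1, a membrane-bound glutathione transferase, read 288, 413 and 482 against 847, 785 and 840, a change of 1.06 ± 0.19 (adjusted p = 0.0243). The antioxidant, heat shock and metallothionein list holds none of these 3, and 0 of its 31 tested genes passed by limma. At an unadjusted p under 0.05, 8 were higher and 0 lower, where 4.23% and 5.06% of all tested probe sets were. The median change of that list was 0.16.

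Hk2, Oxct1 and Adipoq rose too. Hk2, the insulin-responsive hexokinase of muscle, read 1709, 2916 and 2660 at 14 days and 4959, 4733 and 5903 at 28 days, a change of 1.12 ± 0.22 (adjusted p = 0.0319). Oxct1, the mitochondrial enzyme that lets tissues burn ketone bodies, read 1328, 1454 and 1732 against 3312, 2997 and 3588, a change of 1.13 ± 0.23 (adjusted p = 0.0351). The 28-day arrays of both genes lay wholly above the 14-day arrays. A second Hk2 probe set was near the floor of the array at both ages. Adipoq, the fat hormone adiponectin, read 498, 711 and 594 against 1293, 1091 and 942, a change of 0.87 ± 0.18 (adjusted p = 0.0351).

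Adipoq was 1 of 11 tested adipocyte markers, and the only one to pass, where 0.161% of all tested probe sets passed as higher. Scd1, Lipe and Slc2a4 were also higher on every 28-day array but did not pass (adjusted p from 0.126 to 0.319). Fabp4, another defining marker, differed by -0.17 ± 0.27 (adjusted p = 0.917), and Car3, whose 28-day arrays were all lower, by -0.42 ± 0.44 (adjusted p = 0.842). These markers were named after their values were seen. The summed level of the 11 markers was 14310 to 18030 at 14 days and 19410 to 20170 at 28 days, without overlap. Of single tested probe sets, 6.78% were higher without overlap. The part of fat cells in the Adipoq result was not tested.

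Gsn, Dnajb2 and Clu rose as well. Gsn, the actin-severing protein gelsolin, read 3028, 3266 and 2923 at 14 days and 8426, 7093 and 7358 at 28 days, a change of 1.30 ± 0.26 (adjusted p = 0.0342). Its arrays were tightly grouped at each age. Dnajb2, a co-chaperone of the Hsp40 family, read 219, 290 and 249 against 529, 589 and 474, a change of 1.03 ± 0.22 (adjusted p = 0.0461). Clu, the secreted chaperone clusterin, read 466, 521 and 438 against 933, 711 and 820, a change of 0.77 ± 0.16 (adjusted p = 0.0402). A second Clu probe set overlapped between the ages and did not pass (0.64 ± 0.38, adjusted p = 0.636).

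The largest rise was that of Gm14743, an X-linked predicted gene. It read 278, 203 and 263 at 14 days and 1057, 2576 and 2984 at 28 days, a change of 2.95 ± 0.63 (adjusted p = 0.0461). The unnamed probe set probe_99671_at read 397, 290 and 217 against 1944, 1083 and 1482, a change of 2.26 ± 0.31 (adjusted p = 0.00114). The unnamed probe set probe_93497_at read 55.5, 129 and 212 against 394, 567 and 356, a change of 1.75 ± 0.33 (adjusted p = 0.0243). None of the 3 overlapped, though the spread within an age was wide for Gm14743 at 28 days and for probe_93497_at at 14 days.

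The same interval was measured in mdx muscle on 6 other arrays, which share none with the control comparison. There 8 of 7453 probe sets passed (0.107%), and 7 of these had the same sign in control muscle. All 21 probe sets called in control muscle moved in the same direction in mdx muscle, against 61.1% of all tested probe sets (4553). Of the 21, 17 had an unadjusted p under 0.05 in mdx muscle, where 8.12% of all did, and 4 passed the test in both genotypes. These 4 were Dlk1, Cyp2e1, Meg3 (probe_160173_at) and probe_99671_at. The model gives both genotypes the same error for a probe set, and calls in control muscle favour small errors. The p-values in mdx muscle are therefore not independent of the calls in control muscle. Among the mdx 14-day arrays, replicate 3 had a mean correlation of 0.87 with all other arrays, against 0.894 and 0.903 for replicates 1 and 2. Its log2 ratio of 3′ to 5′ probe sets of Gapdh was -3.62, against -1.4 and -0.75. The part of this array in the mdx changes given here and below was not tested. Across all tested probe sets the changes of the genotypes correlated with r = 0.319.

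In mdx muscle Dlk1 read 1463, 2005 and 1143 at 14 days and 482, 509 and 577 at 28 days. Its change was -1.49 ± 0.23 (adjusted p = 0.0057), and the control change of -1.66 differed from it by -0.17 ± 0.32. Cyp2e1 read 592, 573 and 359 against 1842, 1319 and 1102 in mdx muscle, a change of 1.46 ± 0.24 (adjusted p = 0.00856). Meg3 by probe_160173_at changed by -0.98 ± 0.17 (adjusted p = 0.0191), close to the -0.93 of control muscle. Of the probe sets below the filter, Kcne1l read 1401, 1504 and 1356 against 180, 27.2 and 58.7 in mdx muscle, a change of -4.06 (adjusted p = 5.99e-06 in the unfiltered model). Nrk (-1.88, adjusted p = 0.00532) and Agtr2 (-2.30, adjusted p = 0.0329) also fell in mdx muscle, and Trim59 did not pass there (-0.86, adjusted p = 0.674).

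Ephx1 had the widest gap between the genotypes among the called genes. Its mdx arrays read 275, 334 and 1014 at 14 days and 533, 793 and 450 at 28 days, which overlapped, for a change of 0.33 ± 0.46 (adjusted p = 0.93). The mdx mean at 14 days was 541 ± 410, against 135 ± 25 in control muscle (SD, n = 3). The difference of the changes, 1.92 ± 0.65, did not pass the test (adjusted p = 0.998). In the test of this difference 1 of 7453 probe sets passed (0.0134%), that of Dmwd, a WD repeat protein gene, and 217 had an unadjusted p under 0.05 (2.91%). Dmwd did not pass in control muscle (0.28 ± 0.23, adjusted p = 0.781) and fell in mdx muscle. For all other probe sets the changes of the genotypes were not shown to differ.

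**Figure D3:**
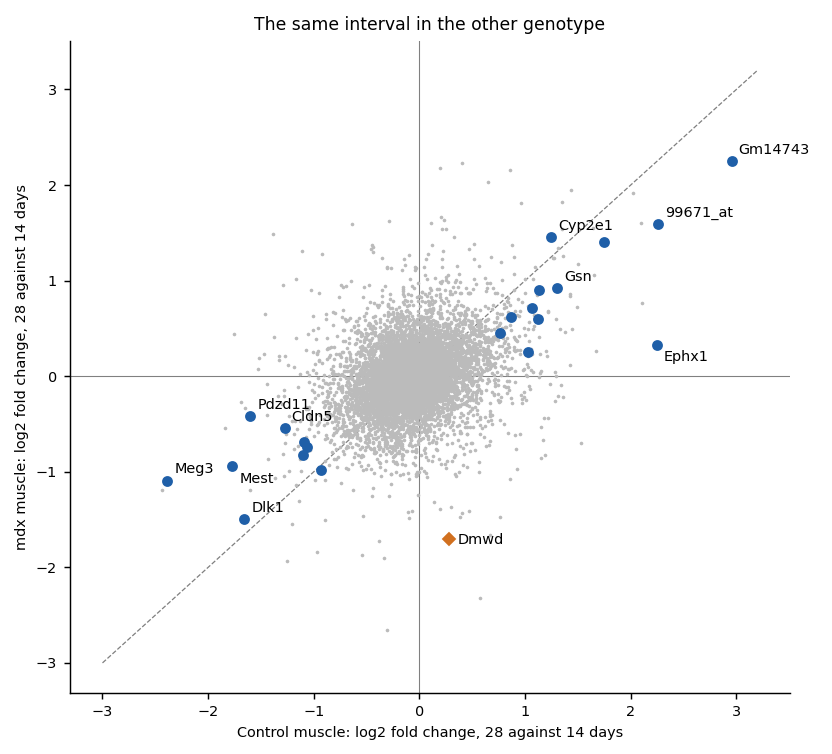
Log2 change from 14 to 28 days in control muscle (horizontal) and in mdx muscle (vertical) for the 7453 tested probe sets in grey. Blue points are the 21 called in control muscle, the orange diamond is Dmwd, and the dashed line marks equal change. All 21 blue points lie in the quadrants of equal sign, Dlk1 and Cyp2e1 near the line and Ephx1 far below it at 2.25 and 0.33.

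No gene of sarcomere structure passed, but most were higher. Of 17 tested genes of sarcomere and Z-disc structure 16 were higher at 28 days, where 42.6% of all tested probe sets were. Without overlap 7 were higher (6.78% of all tested probe sets were), and 0 passed by limma. At an unadjusted p under 0.05 there were 4 higher, where 4.23% of all tested probe sets were. The median change of the 17 genes was 0.48, and 0.42 and 0.61 under quantile normalization and median centring. In mdx muscle their median change was 0.11. Cryab, the small heat shock protein of the Z-disc, read 2334, 2681 and 2902 against 4056, 4552 and 4241, a change of 0.70 ± 0.16 (adjusted p = 0.0828). Genes named in this and the next paragraph other than Hk2 were chosen after their values were seen.

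Of 29 tested genes of glycolysis and glycogen, Hk2 passed, where 0.161% of all tested probe sets passed as higher. Of the 29, 23 were higher, where 42.6% of all tested probe sets were. Their median change was 0.32 in control and 0.09 in mdx muscle. At an unadjusted p under 0.05 there were 8 higher and 3 lower, where 4.23% and 5.06% of all tested probe sets were. Slc2a4, the insulin-responsive glucose transporter, read 1508, 1902 and 1864 against 3192, 3147 and 3471, a change of 0.90 ± 0.23 (adjusted p = 0.126). Gys1, muscle glycogen synthase, changed by 0.74 ± 0.22 (adjusted p = 0.207), and Fbp2, which runs the opposite way to glycolysis, by -1.07 ± 0.48 (adjusted p = 0.474). Of 16 tested genes of calcium handling and excitation 0 passed by limma and 3 were higher at an unadjusted p under 0.05. One of them, Ryr1, the calcium release channel, read 5045, 5992 and 5935 against 9615, 10840 and 10190 (0.85 ± 0.21, adjusted p = 0.115). Of 62 tested genes of oxidative phosphorylation 0 passed by limma, 2 were higher and 0 lower at an unadjusted p under 0.05, and their median change was 0.12. Of 36 tested genes of fatty acid oxidation and the citric acid cycle 0 passed by limma, 1 was higher and 3 were lower at an unadjusted p under 0.05, 20 were lower, and their median change was -0.05.

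**Figure D4:**
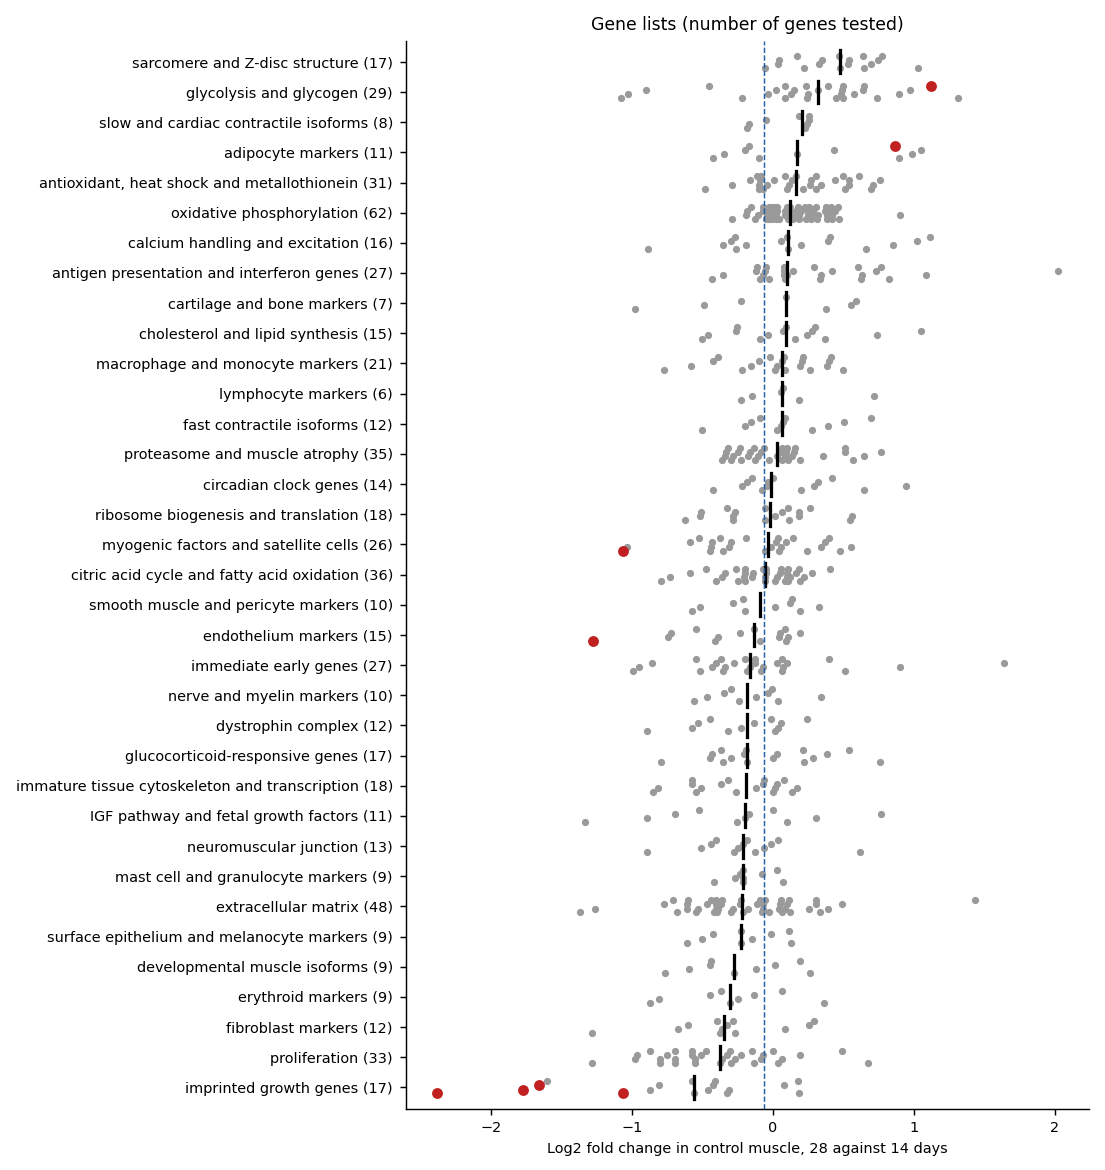
Log2 change from 14 to 28 days in control muscle for the tested members of each gene list with at least 5 tested genes, 1 row per list with the number tested in brackets. Grey points are genes that did not pass, red points genes that passed, black bars list medians, and the dashed line the median of all tested probe sets (-0.06). Imprinted growth genes have the lowest median (-0.56) and sarcomere and Z-disc genes the highest (0.48), and 4 of the red points are imprinted genes, with Cdkn1c drawn again among the myogenic factors.

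The myosin heavy chains did not pass in either direction. Myh1 read 12030, 19040 and 27200 at 14 days and 11700, 22380 and 28540 at 28 days, a change of 0.09 ± 0.35 (95% confidence interval -0.65 to 0.82, adjusted p = 0.974). Myh3, the embryonic myosin, which extraocular muscle keeps into adult life, read 4744, 5590 and 5058 against 5116, 6192 and 6341. Its change of 0.19 carried a wide error of 0.94 (adjusted p = 0.975). Control 112-day replicate 1, outside this comparison, enters that error. It read 41.1 for Myh3, against 4959 and 4927 on replicates 2 and 3. Myh8, the perinatal myosin, read 2394, 2365 and 2441 against 1586, 1513 and 1659. The ages of Myh8 were clearly separated in these 6 arrays, yet the change of -0.59 ± 0.50 did not pass (adjusted p = 0.781), and it passed without the 2 arrays that stood apart (-0.59 ± 0.13, adjusted p = 0.033).

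Myh4 (probe_98488_at, 0.03 ± 0.73) and the main probe set of the slow myosin Myh7 (0.23 ± 0.19) overlapped between the ages. A dim second probe set of Myh7 had the opposite sign (-0.68 ± 0.40, adjusted p = 0.64). Myh2 was below the level filter, at 28.5 ± 17.8 and 26.6 ± 17.5 (SD, n = 3). Myl4, the light chain of embryonic muscle, was lower without overlap by both probe sets, at -0.77 ± 0.23 (adjusted p = 0.222) and -0.53 ± 0.27 (adjusted p = 0.567).

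The subunits of the acetylcholine receptor showed no call. Chrng, the fetal subunit, changed by -0.44 ± 0.32 (adjusted p = 0.732) and, by a second probe set, by -1.08 ± 0.58 (adjusted p = 0.607). Chrne, the adult subunit, gave changes of -0.21 ± 0.25, 0.35 ± 0.61 and 0.64 ± 0.62 over its probe sets (adjusted p = 0.873, 0.928 and 0.823). Chrna1 stayed at 1401 ± 245 and 1425 ± 136 (SD, n = 3), a change of 0.03 ± 0.48 (adjusted p = 0.988). Control 112-day replicate 1, outside this comparison, read 191 for Chrna1 and enters that error. Dmd read 250, 335 and 331 at 14 days and 199, 221 and 235 at 28 days, lower without overlap, but its change of -0.45 ± 0.28 did not pass (adjusted p = 0.67).

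**Figure D5:**
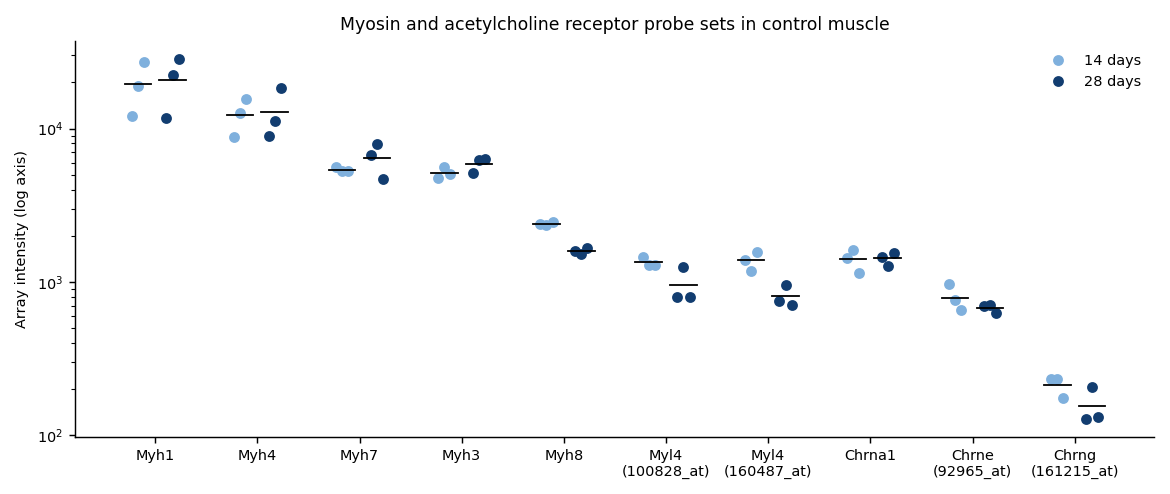
Intensity (log axis, scaled units) of myosin and acetylcholine receptor probe sets on the control arrays, light points for 14 days and dark points for 28 days, with bars at the arithmetic mean of 3 arrays. Levels of different probe sets cannot be set against each other. The ages overlap for Myh1, Myh4 and Myh3, and the 3 dark points of Myh8 (1513 to 1659) lie below its 3 light points (2365 to 2441).

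Genes of dividing cells were mostly lower at 28 days, and 0 passed by limma. Of 33 tested genes of proliferation 28 were lower, where 57.4% of all tested probe sets were, and 11 were lower without overlap, where 9.3% were. At an unadjusted p under 0.05 there were 6 lower and 1 higher, where 5.06% and 4.23% of all tested probe sets were. The median change was -0.37, and -0.29 and -0.24 under quantile normalization and median centring. Many such genes are dim, and the list held 65 genes on the array. Without the level filter 54 of 65 were lower, where 61.3% of all probe sets were, and 18 were lower without overlap, where 9.81% were. Top2a, the topoisomerase of dividing cells, read 155, 125 and 157 against 59.2, 21.7 and 18.1 (-1.81 ± 0.47, adjusted p = 0.162 in the unfiltered model). In mdx muscle Top2a read 113, 47.1 and 11.8 at 14 days and 62.9, 16.5 and 75.5 at 28 days, a change of 0.02. The lowest of these values was on mdx 14-day replicate 3, so that change depends on this array. The median change of the 33 tested genes in mdx muscle was -0.04. Mki67 differed by -2.15 ± 0.69 on one probe set (unfiltered, adjusted p = 0.316) and by -0.51 ± 0.41 on another (adjusted p = 0.764), both without overlap.

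Of 48 tested genes of the extracellular matrix 33 were lower at 28 days, where 57.4% of all tested probe sets were, and 14 were lower without overlap, where 9.3% were. By limma 0 passed. At an unadjusted p under 0.05, 8 were lower and 1 higher, where 5.06% and 4.23% of all tested probe sets were. The median change was -0.22, and -0.09 under median centring, where all probe sets had a median of 0.07. Col3a1, a fibrillar collagen, gave -1.05 ± 0.29 (adjusted p = 0.178) on the probe set probe_102990_at, which read 2622, 3052 and 3052 against 1577, 984 and 1749. Its other probe sets gave -0.25 ± 0.38 and -0.36 ± 0.28 and overlapped between the ages. Col1a1 overlapped on both probe sets, at 0.35 ± 0.21 (adjusted p = 0.636) and 0.09 ± 0.38 (adjusted p = 0.974).

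Among 26 tested myogenic factors and satellite cell genes only Cdkn1c passed, where 0.121% of all tested probe sets passed as lower. At an unadjusted p under 0.05, 4 of the 26 were lower and 0 higher, where 5.06% and 4.23% of all tested probe sets were. Myf5, a transcription factor of muscle precursors, read 626, 519 and 409 against 305, 197 and 233 (-1.03 ± 0.35, adjusted p = 0.29), a gene named after its value was seen. Of the 27 tested genes of antigen presentation and interferon response 0 passed by limma. At an unadjusted p under 0.05, 6 of the 27 were higher and 0 lower, where 4.23% and 5.06% of all tested probe sets were. The summed level of the 27 was 18400 to 22910 at 14 days and 23470 to 27520 at 28 days, without overlap. H2-Aa, a class II histocompatibility chain, read 77.2, 55.2 and 54.7 against 368, 406 and 180 (2.03 ± 0.55, adjusted p = 0.17), also named after its value was seen. The 10 tested nerve and myelin markers summed to 11910 to 12470 at 14 days and 9594 to 10650 at 28 days, again without overlap, and 0 of them passed by limma or had an unadjusted p under 0.05. The part of these cell types in the results was not tested. Of the cell type lists, the sums overlapped between the ages for all but these and the adipocyte markers.

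RNA quality was measured by the ratios of 3′ to 5′ probe sets of Gapdh and actin. For Gapdh, on the log2 scale, the 14-day arrays had -0.59, -0.51 and -0.31 and the 28-day arrays -3.0, -0.21 and -0.63. For actin the 14-day arrays had -1.27, 0.41 and 0.08 and the 28-day arrays -0.52, 0.78 and 0.54. Loss of 5′ sequence raises these ratios, and both were highest on 28-day replicate 2. The lowest ratio was on 28-day replicate 1 by Gapdh and on 14-day replicate 1 by actin. Without 28-day replicate 2, 3 probe sets passed, of which 2 were among the 21. Without 28-day replicate 1, 5 passed, of which 3 were among the 21. Without 14-day replicate 1, 2 passed, both among the 21. The part of RNA quality in these results was not tested.

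The next interval, 56 against 28 days in control muscle, uses the same 28-day arrays, so it is no independent comparison. There 498 probe sets passed (6.68%), 242 higher (3.25%) and 256 lower (3.43%). Of the 21 called from 14 to 28 days, 2 were also called from 28 to 56 days. Mgst1 rose further, to 2111 ± 226 (1.34 ± 0.19, adjusted p = 0.00134), and Pdzd11 rose by 1.42 ± 0.35 (adjusted p = 0.0254), opposite to its earlier fall. For the imprinted genes that fell by 28 days the later changes did not pass, at -0.49 ± 0.23 for Dlk1 (adjusted p = 0.172), -0.27 ± 0.33 for Mest (adjusted p = 0.619), -0.70 ± 0.21 for Cdkn1c (adjusted p = 0.0504), and -0.57 ± 0.17 and -0.78 ± 0.45 for the probe sets of Meg3 (adjusted p = 0.0502 and 0.268). Of the 17 tested imprinted genes 1 fell from 28 to 56 days, Gnas, which encodes a stimulatory G protein subunit and was named after its value was seen (-1.27 ± 0.36, adjusted p = 0.0408). Its earlier change was 0.18 ± 0.36 (adjusted p = 0.943). Ephx1, Adipoq and Clu had later changes of 0.04, 0.03 and 0.03.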

How the data were processed

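RNA of 24 samples was measured on Affymetrix U74Av2 arrays of 12488 probe sets, 8 groups of 3. The deposited values are linear intensities per probe set, and per the labels they come from a standard Affymetrix protocol. Scanner software and detection calls: not given in the sources used. The trimmed mean was 1500.5 to 1500.9 on every array as deposited. Of these probe sets 66 manufacturer controls were left out. Values under 1 were set to 1 (44 values), and arrays were rescaled to a trimmed mean of 500, offset by 16 and put on a log2 scale. Probe sets whose mean log2 level over the 24 arrays was below the 40th percentile of these means (an intensity of 125.7 after undoing the log and offset) were left out, which kept 7453. Group means of all 24 arrays were fitted in limma 3.58.1 (R 4.3.3) with a variance trend (16 residual degrees of freedom), and p-values were Benjamini-Hochberg adjusted over all tested probe sets. No depth exists for arrays, so their number limits the precision.

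Of 12422 probe sets, 10833 had 1 symbol, 396 several and 1193 none, and 10817 symbols matched RefSeq (GRCm38.p6). In the 38 lists each gene was read from its brightest probe set (by mean log2 level). Named genes were up to 15 called genes in each direction without overlap between ages, called list members, genes called in the difference between genotypes and a set of always-named muscle genes, all probe sets of which were examined. Myh13 and H19 were not analysed here. The comparison and the lists were chosen with earlier results of these data known. On simulated data the fit recovered 51.1% of 94 probe sets changed by 1 on the log2 scale and 91.5% of 106 changed by 2, for control 28 against 14 days over 7453 probe sets. The simulated noise was normal and independent, with the same spread of a probe set on all arrays. It held no arrays that stood apart, and more probe sets changed than were called here. These shares are therefore not the power of the test in the real data. The smallest exact two-sided p for 3 against 3 arrays is 0.1, so the model over all probe sets was used. Alternatives were other offsets, filters, scalings, fewer arrays, a covariate and a replicate block.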

Additional observations from a re-analysis of the deposited data

Results flagged for a closer look

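The change from 14 to 28 days of Dmwd differed between control and mdx muscle by a test of the difference itself. The difference was 1.9826 on the log2 scale (control minus mdx, SE 0.33, limma adjusted p = 0.0409). The control arrays read 350, 239 and 443 at 14 days and 388, 506 and 347 at 28 days, which overlapped. The mdx arrays read 240, 300 and 279 against 84.0, 72.4 and 62.0, which did not, and the mdx mean was back at 425 at 56 days and 357 at 112 days. The difference passed with an offset of 1 (adjusted p = 0.0225), without the variance trend (0.0211) and without control 14-day replicate 3 (0.0177), and under the other alternatives that kept the probe set it did not pass (0.0505 to 0.998). A filter at the 60th percentile removed it. No group held enough arrays for a test of single outlying arrays.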

How the results depend on the processing

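The direction of each of the 21 calls in control muscle held under every alternative run, but their number did not. With ages that did not overlap, the direction could not turn under other offsets, other filters or fewer arrays. Between 20 and 24 passed with offsets of 1 and 64, without the filter, with a filter at the 60th percentile, after quantile normalization and with the largest intensity as covariate. Median centring left 6 (4 higher, 2 lower), no variance trend 10 (4 and 6), only the 12 control arrays 2 (1 and 1) and only the 6 arrays compared 5 (4 and 1). Without the 2 arrays that stood apart there were 72 (42 and 30). With the replicate number as a block 15 passed (7 and 8). Same-numbered arrays of the 2 ages correlated at -0.01, -0.21 and 0.11 in their deviations, and arrays of different numbers at -0.23 to 0.18. With 3 arrays per age these values cannot settle whether the numbers pair the arrays. Leaving out 1 array gave 2 to 8 calls, 1 to 7 higher and 1 to 4 lower. Dlk1 passed throughout except with only the 6 arrays (adjusted p = 0.0537).

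In mdx muscle the 8 calls became 5 with median centring, 5 without the trend, 22 without the 2 arrays that stood apart, 0 with only the arrays compared (limma, 493 at an unadjusted p under 0.05) and 1 to 12 with 1 array left out. The difference between genotypes (1 call) had 0 with offset 64, no filter, the 60th percentile, quantile normalization, median centring, the 2 arrays left out, the covariate, the replicate block and only the arrays compared, and 0 to 1 with 1 array left out. The 498 calls of 56 against 28 days became 250 with median centring, 0 with the covariate (794 unadjusted), 8 with the 12 control arrays, 0 with only the arrays compared (1364 unadjusted) and 24 to 700 with 1 array left out. The causes were not tested.

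Signs turned only for genes without a call: Myh1 (-0.0293 by quantile, -0.0140 with the covariate) and Myh4 (-0.0684 and -0.0371). With 1 array left out the log2 changes ran from -0.1048 to 0.148 for Chrna1, -0.3336 to 1.2328 and -0.0012 to 0.4402 for a probe set each of Chrne and Myh4, -0.229 to 0.298 for Col1a1, -1.1356 to 0.9228 for Igf2, -0.2183 to 0.4578 for Myh1 and -0.2583 to 0.2568 for the other Myh4 probe set. Dim probe sets are limited by background.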

Other observations

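Without the 2 arrays that stood apart, 30 probe sets (0.403%) passed as lower at 28 days in control muscle, and among them were 5 of 17 tested imprinted genes, 3 of 48 extracellular matrix genes and 1 of 12 fibroblast markers. The genes in this section were chosen after their values were seen, and p-values are limma adjusted. Postn, the matrix protein periostin, read 6073, 7555 and 6203 at 14 days and 3154, 2017 and 3223 at 28 days, without overlap (-1.26 ± 0.23, adjusted p = 0.00752 without those arrays and 0.315 with them). Fap, a protease of activated fibroblasts, read 846, 765 and 690 against 354, 228 and 351 (-1.28 ± 0.20, adjusted p = 0.00275 and 0.151). Nid2, a basement membrane nidogen, changed by -1.37 ± 0.31 (adjusted p = 0.0398 and 0.352), and Lama2, the laminin chain of the muscle basement membrane, by -0.53 ± 0.12 (adjusted p = 0.0322 and 0.215). Peg3 passed on a pair of probe sets, at -1.21 ± 0.28 (adjusted p = 0.0466 without those arrays and 0.235 with them) and -0.81 ± 0.17 (adjusted p = 0.028 and 0.619).

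The 42 that passed as higher (0.564%) held 3 of 29 tested genes of glycolysis and glycogen (Hk2, Gys1 and Slc2a4) and 1 of 31 of the antioxidant, heat shock and metallothionein list (Cryab). Akt2, a kinase of insulin signalling, read 626, 1194 and 1097 at 14 days and 1984, 1942 and 1934 at 28 days (1.05 ± 0.25, adjusted p = 0.0468 without those arrays and 0.0988 with them). Slc2a4 and Gys1 had adjusted p-values of 0.0481 and 0.0368. Mgst3, a relative of Mgst1, read 2369, 3205 and 3627 against 6140, 6619 and 6585 (1.09 ± 0.23, adjusted p = 0.0221 and 0.0694). Mmp3, the matrix protease stromelysin, read 109, 90.4 and 89.1 against 272, 318 and 228 (1.36 ± 0.19, adjusted p = 0.0021 and 0.247). Bpifa2, a secreted protein of salivary glands, read 345, 234 and 284 against 1449, 841 and 1686 (2.10 ± 0.36, adjusted p = 0.00502 and 0.247). The 3 tested lacrimal and Harderian gland markers summed to 484 to 709 at 14 days and 542 to 1037 at 28 days, which overlapped. Of these 3 markers, 1 was higher and 0 lower at an unadjusted p under 0.05, where 4.23% and 5.06% of all tested probe sets were. Their changes ran from -0.11 to 1.22, with a median of 0.37 in control and 0.67 in mdx muscle. The part of gland tissue in these results was not tested. Of the 72, 69 had the same sign in mdx muscle and 11 passed there too.

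X-linked genes made up 3 of the 18 called genes (16.7%: Gm14743, Itm2a and Pdzd11), against 156 of 5664 tested genes with a known chromosome (2.8%). Among the 4 named genes called below the level filter 3 were X-linked (75.0%: Agtr2, Kcne1l and Nrk), against 259 of 8235 genes on the array (3.1%). Without the 2 arrays that stood apart it was 5 of 63 called genes (7.9%).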
